A study of Rattus norvegicus with 6 samples.

Results

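The 9 genes described here are markers by which hippocampal neural stem and progenitor cells are commonly recognised, namely *Sox2*, *Nes*, *Vim*, *Sox9*, *Prom1*, *Fabp7*, *Hopx*, *Slc1a3* and *Nr2e1*. They were taken by symbol from the deposited expression tables, where all 9 were found among 17315 genes, and 8 of them had a value above 0. The study transfected cultured adult rat hippocampal neural stem cells (NSCs) with a small interfering RNA against *Derl1*, which encodes Derlin-1, a membrane protein of endoplasmic reticulum quality control (siDerl1), or with a non-targeting negative control duplex (siControl), with 3 samples in each group, numbered 1 to 3. All 6 samples carried the same background treatment: after transfection they were held for 2 days in proliferation medium containing bFGF and then for 2 days in a second medium, in which bFGF at 10 ng/mL was combined with 50 ng/mL BMP4 to bring these cells into quiescence. The cells were a line cloned from rats, and a single duplex was used against *Derl1*, so the samples stood for 1 line and 1 siRNA sequence. Nothing in the sources used here says whether equally numbered samples came from one transfection day or from separate cultures, so p-values measured the spread between these samples only.

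In the adult dentate gyrus, radial glia-like stem cells rest for long periods, and BMP signalling is one of the cues that holds them in this quiescent state, whereas FGF signalling favours division. These cells share much of their gene expression with astrocytes, since both express glial transcription factors, a glutamate transporter and intermediate filament proteins. Among the genes described here, *Sox2*, *Sox9* and *Nr2e1* (TLX) encode DNA-binding transcription factors and *Hopx* a homeodomain-only protein that does not bind DNA by itself. *Nes* and *Vim* encode intermediate filament proteins, *Fabp7* (BLBP) a fatty acid binding protein of radial glia, *Slc1a3* (GLAST) a glutamate transporter, and *Prom1* the surface glycoprotein CD133.

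Expression was given as TPM, a transcript level scaled for transcript length and for the total of each sample, so levels of different genes could be set side by side. Read depth cannot be read from TPM and is unknown here, so no counting error was attached to the values. Between 11641 and 11808 genes had a value above 0 in a sample. The targeted gene *Derl1* was at 121.59, 131.92 and 127.64 TPM in siControl samples 1, 2 and 3 and at 44.86, 70.81 and 73.98 TPM in siDerl1 samples 1, 2 and 3, a mean of 127 ± 5.19 against 63.2 ± 16.0 TPM (SD, n = 3). The groups did not overlap. The difference was −1.03 on the log2(TPM + 1) scale with a standard error of 0.18, and its limma adjusted p was 0.497 without and 0.00884 with the replicate number as a block, but 0.229 when the block fit left out the trend of variance with level and 0.104 when it left out the filter on low levels. Samples with the same number deviated together across genes, but numbers 2 and 3 were hardly separated from each other. Sample 1 of both groups stood apart from samples 2 and 3, so each gene is described below by group and by number.

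The level of the stem cell genes spanned a wide range. *Vim* was the highest, with a mean of 4304 TPM over the 6 samples, and ranked 7 among all genes. *Sox2* followed at 498 TPM, then *Fabp7* at 151, *Nes* at 114, *Slc1a3* at 69.3, *Sox9* at 27.3, *Hopx* at 21.1 and *Nr2e1* at 6.40 TPM, and *Prom1* was listed at 0 in all 6 samples. The ranges of neighbours in this order overlapped for *Fabp7* and *Nes*, where *Fabp7* was the higher in 5 of 6 samples, and for *Sox9* and *Hopx*, where *Sox9* was the higher in 4 of 6. The ranges of the other neighbours were separate. Of the 10331 genes with a mean of at least 1 TPM, which were the ones tested, 99.9% had a mean at or below that of *Vim*, 97.3% at or below *Sox2*, 43.8% at or below *Sox9* and 13.9% at or below *Nr2e1*.

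**Figure D1:**
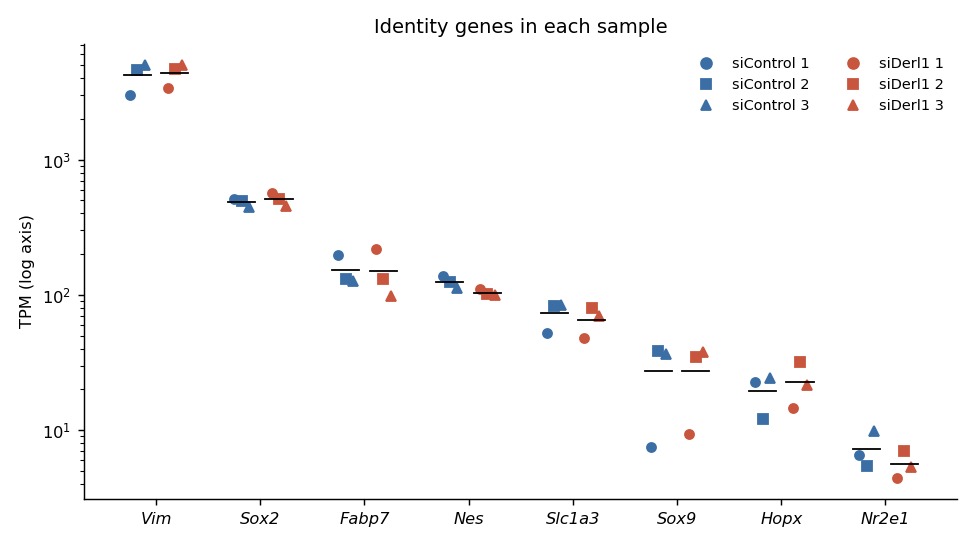
TPM (log axis) of the 8 stem cell genes with values above 0 in each siControl and siDerl1 sample, marked by sample number, with a line at each group mean. *Vim* lies between 3008 and 5044 TPM and *Nr2e1* between 4.40 and 9.77 TPM, and the samples numbered 1 lie below the rest for *Sox9*, *Vim* and *Slc1a3* and above them for *Fabp7*.

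The transcription factor with the highest level was *Sox2* (NM_001109181), which maintains the undifferentiated state of neural stem cells. It was at 512.43, 492.52 and 444.77 TPM in siControl samples 1 to 3 and at 565.07, 514.17 and 457.55 TPM in siDerl1 samples 1 to 3. Each siDerl1 sample was above the siControl sample of the same number, by 0.14, 0.06 and 0.04 on the log2(TPM + 1) scale, while the groups overlapped. The means were 483 ± 34.8 and 512 ± 53.8 TPM (SD, n = 3). The log2 difference was 0.08, with a 95% confidence interval from −0.13 to 0.30 and a limma adjusted p of 0.913.

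*Sox9* (NM_080403), a factor of radial glia and astrocytes, had the widest spread, relative to its mean, of the measured genes. Its level was 7.5 TPM in siControl sample 1 and 9.42 TPM in siDerl1 sample 1, against 38.34 and 36.48 TPM in siControl samples 2 and 3 and 34.67 and 37.52 TPM in siDerl1 samples 2 and 3. The mean of samples 2 and 3 was thus 4.99-fold the level of sample 1 in the siControl group and 3.83-fold in the siDerl1 group. The difference between number 1 and the mean of numbers 2 and 3 was −2.0 on the log2(TPM + 1) scale. The limma F test for sample number gave an adjusted p of 3.3e-05. It covers any difference among the 3 numbers, and each p by number below comes from it. Between the siRNA groups the means were 27.4 ± 17.3 and 27.2 ± 15.5 TPM (SD, n = 3). That log2 difference was 0.06 with an adjusted p of 0.990, and its 95% interval, from −1.60 to 1.73, narrowed to −0.19 to 0.31 with the replicate number as a block. The ratio of *Sox2* to *Sox9* TPM was 68.3 and 60.0 in the samples numbered 1 and between 12.2 and 14.8 in the other 4. This came mostly from *Sox9*. *Sox2* in sample 1 was only 1.09-fold the mean of samples 2 and 3 in siControl and 1.16-fold in siDerl1.

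**Figure D2:**
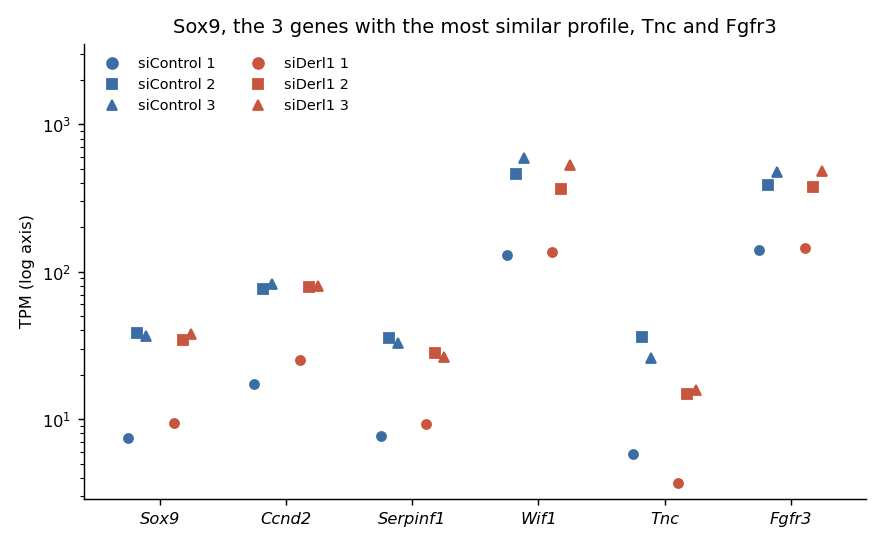
TPM (log axis) in each siControl and siDerl1 sample of *Sox9*, of the 3 genes with the most similar profile (*Ccnd2*, *Serpinf1* and *Wif1*) and of 2 other progenitor genes, *Tnc* and *Fgfr3*. For all 6 genes both samples numbered 1 (circles) lie below the other 4 samples.

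*Hopx* (NM_133621), which marks quiescent stem cells of the dentate gyrus, was at 22.56, 12 and 24.22 TPM in siControl samples 1 to 3 and at 14.65, 31.71 and 21.40 TPM in siDerl1 samples 1 to 3. The lowest and the highest value both came from samples numbered 2, on opposite sides of the comparison. The group difference was 0.19 on the log2(TPM + 1) scale with a 95% interval from −0.59 to 0.97 and a limma adjusted p of 0.95. *Nr2e1* (NM_001113197), a nuclear receptor needed for stem cell self-renewal, was at 6.53, 5.38 and 9.77 TPM in siControl and at 4.40, 7.02 and 5.31 TPM in siDerl1 samples 1 to 3. Here too the groups overlapped, with a log2 difference of −0.31, a 95% interval from −0.88 to 0.26 and a limma adjusted p of 0.858. Neither gene passed the test for sample number, with limma adjusted p of 0.824 for *Hopx* and 0.630 for *Nr2e1*, and the difference of number 1 from numbers 2 and 3 had opposite signs for *Hopx* in the 2 groups (0.38 in siControl and −0.79 in siDerl1, log2(TPM + 1) scale). The *Hopx* difference by number depended on single samples of numbers 1 and 2. On the log2(TPM + 1) scale it was −0.79 without siControl sample 1 and 0.38 without siDerl1 sample 1. Leaving out a sample numbered 2 gave −0.63 without siControl sample 2 and 0.22 without siDerl1 sample 2. The F test over the 3 numbers passed in both of those fits (limma adjusted p of 0.0122 and 0.00886), in which number 2 was a single sample whose spread was taken from the other numbers.

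Of the intermediate filament genes, *Nes* (NM_001308239, NM_012987), which encodes nestin, was the only one of the 8 measured stem cell genes whose siRNA groups did not overlap. It was at 137.1, 125.08 and 112.65 TPM in siControl samples 1 to 3 and at 110.93, 101.11 and 99.41 TPM in siDerl1 samples 1 to 3, so the highest siDerl1 value lay just under the lowest siControl value. The means were 125 ± 12.2 and 104 ± 6.22 TPM (SD, n = 3), a ratio of 0.831. On the log2(TPM + 1) scale the difference was −0.26 with a standard error of 0.09 and a 95% interval from −0.47 to −0.05, and within the numbered pairs it was −0.30, −0.30 and −0.18. The limma p was 0.0199 unadjusted and 0.704 adjusted, and the exact two-sided permutation test gave 0.1, the smallest p that 3 against 3 samples allow. With the replicate number as a block the adjusted p was 0.0899, so *Nes* did not pass the threshold of 0.05 in either fit. The unadjusted p was between 0.0546 and 0.0619 without siControl sample 1, siControl sample 2, siDerl1 sample 2 or siDerl1 sample 3.

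*Vim* (NM_031140), which encodes vimentin, was at 3007.91, 4644.15 and 5029.97 TPM in siControl samples 1 to 3 and at 3385.87, 4713.26 and 5043.98 TPM in siDerl1 samples 1 to 3. The groups overlapped throughout, with means of 4227 ± 1074 and 4381 ± 878 TPM (SD, n = 3) and a log2 difference of 0.07 (limma adjusted p = 0.969, 95% interval from −0.45 to 0.59). Sample 1 was at 0.622 of the mean of samples 2 and 3 in the siControl group and at 0.694 in the siDerl1 group. The sample number passed its test for *Vim*, with a difference of −0.61 on the log2(TPM + 1) scale and a limma adjusted p of 2.1e-04. The ratio of *Vim* to *Nes* TPM was 21.9, 37.1 and 44.7 in siControl and 30.5, 46.6 and 50.7 in siDerl1 samples 1 to 3, higher in siDerl1 at every number although the groups overlapped.

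The wider set of 11 intermediate filament genes of neural and mesenchymal cells had 8 tested genes. Against siControl, 2 of them were higher and 1 lower at an unadjusted limma p under 0.05, beside 6.7% of all genes tested in either direction, and none passed after adjustment. The lower gene was *Nes*. One of the higher genes was *Gfap*, the filament protein of astrocytes and of radial glia-like stem cells, at 47.0, 27.7 and 28.9 TPM in siControl and 66.3, 47.5 and 45.3 TPM in siDerl1 samples 1 to 3. Its log2 difference was 0.62 with a standard error of 0.23 and an adjusted p of 0.704, and the groups overlapped because siControl sample 1 lay above siDerl1 sample 3. With the replicate number as a block its limma adjusted p was 0.0219, but 0.229 when the block fit left out the trend of variance with level and 0.111 when it left out the filter on low levels. The other was *Sync*, which encodes syncoilin, with means of 8.94 ± 1.34 and 12.2 ± 0.936 TPM (SD, n = 3), groups that did not overlap, and limma adjusted p of 0.704 without and 0.211 with the block. The median log2 difference of the 8 tested filament genes was 0.10, beside −0.0164 over all genes tested.

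**Figure D3:**
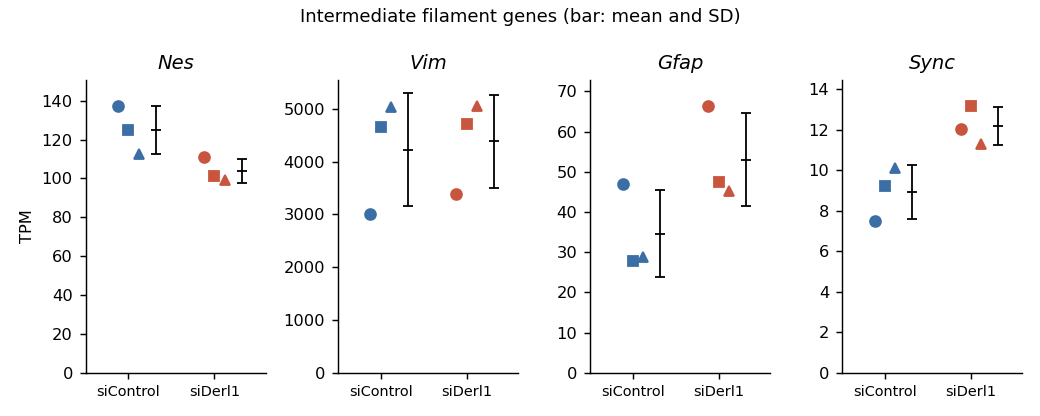
TPM (linear axes from 0, one for each gene) of the intermediate filament genes *Nes*, *Vim*, *Gfap* and *Sync* in each sample, with the mean and SD of 3 samples drawn beside each group. Circles, squares and triangles stand for samples 1, 2 and 3. *Nes* is lower and *Sync* higher in each siDerl1 sample than in every siControl sample, *Gfap* is higher in each siDerl1 sample than in the siControl sample of the same number, and *Vim* overlaps between the groups.

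*Fabp7* (NM_030832), the brain-type fatty acid binding protein, was at 196.42, 130.68 and 127.59 TPM in siControl and at 220.05, 131.62 and 97.25 TPM in siDerl1 samples 1 to 3. Its direction with the sample number was opposite to that of *Sox9* and *Vim*. Sample 1 was 1.52-fold the mean of samples 2 and 3 in siControl and 1.92-fold in siDerl1, a log2 difference of 0.78. The F test for sample number gave a limma adjusted p of 0.00284. Between the siRNA groups the means were 152 ± 38.9 and 150 ± 63.4 TPM (SD, n = 3), with a log2 difference of −0.07, a 95% interval from −0.77 to 0.63 and a limma adjusted p of 0.977.

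*Slc1a3* (NM_001289941 to NM_001289943 and NM_019225), the glial glutamate transporter GLAST, was at 52.12, 82.98 and 83.49 TPM in siControl and at 47.86, 79.56 and 69.65 TPM in siDerl1 samples 1 to 3. The value in siDerl1 was below that in siControl at each of the 3 numbers, by log2 differences of −0.12, −0.06 and −0.26, but the groups overlapped. The group difference was −0.15 on the log2(TPM + 1) scale, with a 95% interval from −0.70 to 0.41 and limma adjusted p of 0.945 without and 0.342 with the block. Sample 1 was at 0.626 and 0.642 of the mean of samples 2 and 3 in siControl and siDerl1, and the sample number passed its test with a log2 difference of −0.65 and a limma adjusted p of 0.00165. The ratio of *Fabp7* to *Slc1a3* TPM was accordingly 3.77 and 4.60 in the samples numbered 1 and between 1.40 and 1.65 in the other 4. *Prom1* (NM_001110137, NM_021751) was listed at 0 in every sample and entered no test.

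Across the 8 measured stem cell genes, the question put by the design was whether their levels differed between siDerl1 and siControl NSCs under quiescence conditions. None of the 8 passed an adjusted p of 0.05, and neither did any of the 10331 genes tested with limma (0%). At an unadjusted p under 0.05, 1 of 8 (*Nes*) was called, beside 6.7% of all genes tested. The groups did not overlap for 1 of 8, beside 13.6% of all genes. With the replicate number as a block, none of the 8 was called, beside 0.552% of all genes (57 genes). The log2 differences were above 0 for 4 genes (*Sox2*, *Vim*, *Sox9*, *Hopx*) and below 0 for 4 (*Nes*, *Fabp7*, *Slc1a3*, *Nr2e1*), with a median of −0.0038, beside −0.0164 over all genes tested. Leaving out 1 sample could turn the direction of *Vim*, *Sox9*, *Fabp7*, *Hopx* and *Slc1a3*, and the median then ran from −0.18 to 0.035. In bulk RNA, fewer cells expressing a gene and less RNA of it per cell cannot be told apart.

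**Figure D4:**
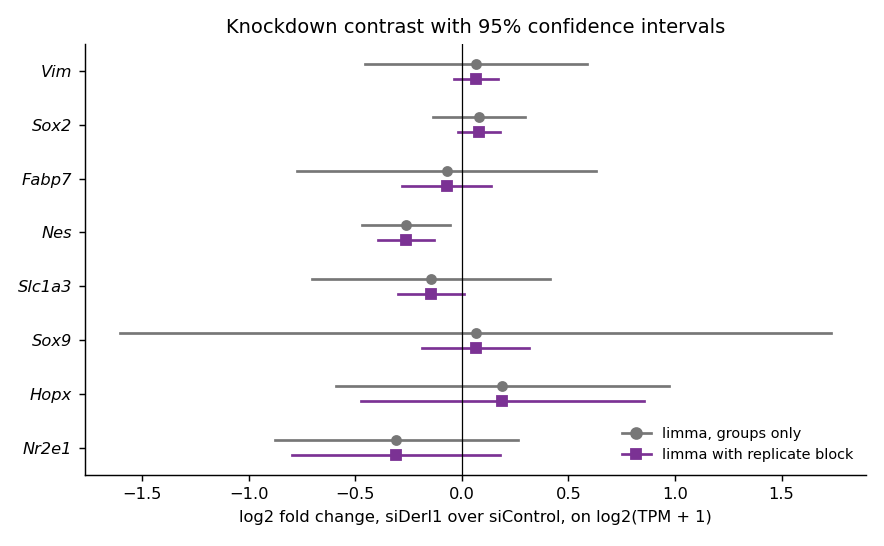
Difference between siDerl1 and siControl for the 8 measured stem cell genes on the log2(TPM + 1) scale, with 95% confidence intervals of the limma fits without and with the replicate number as a block. The intervals of *Nes* lie below 0 in both fits, at −0.47 to −0.05 and −0.39 to −0.13, and the other 7 genes' intervals include 0.

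The stem cell genes were also compared by sample number. The number passed the limma F test for 5 of 8 genes, beside 10.6% of all genes tested. That test covers any difference among the 3 numbers, so the differences of number 1 are descriptions without a p of their own. Numbers 1 were lower for *Sox9*, *Vim* and *Slc1a3* and higher for *Fabp7* and *Sox2*, and for *Nes*, *Hopx* and *Nr2e1* the adjusted p was between 0.161 and 0.824, although *Hopx* was called when either sample numbered 2 was left out. For 4 of 8 genes both samples numbered 1 lay outside the range of the other 4, beside 32.7% of all genes. *Sox2* was the weakest of the 5, with a log2 difference of 0.18 and an F test adjusted p of 0.0396. Its level fell from sample 1 to sample 2 and again to sample 3 in both groups. Its call was lost without the filter on low levels (0.0830) and without any one of siControl samples 2 and 3 and siDerl1 samples 2 and 3 (0.0548 to 0.242). When the trend of variance with level was left out of the fit, the adjusted p stayed under 0.05 for *Sox9* (0.0148) and was 0.0591 for *Vim*, 0.0577 for *Slc1a3*, 0.0971 for *Fabp7* and 0.274 for *Sox2*. The difference of number 1 from the others was tested with limma for a change between siRNA groups. None of the 8 genes passed, the lowest adjusted p being 0.797, beside 1 of all 10331 genes tested. This fit leaves few residual degrees of freedom, so a change in the 8 genes could easily be missed. Markers of other cell types moved with the number too: 4 of 6 tested astrocyte markers and 2 of 8 tested oligodendrocyte lineage markers were called. Of the astrocyte markers 2 were higher and 2 lower in number 1, and both oligodendrocyte lineage markers were higher. In number 1, *S100b* was higher by a log2 difference of 0.60 (limma adjusted p = 1.7e-04) and *Gfap* by 0.61 (0.00629), *Fgfr3* was lower, at −1.58 (5.3e-07), and *Sox10* was higher by 0.34 (0.00740). Without the variance trend the adjusted p was 0.0525 for *S100b*, 0.0713 for *Gfap*, 0.00886 for *Fgfr3* and 0.156 for *Sox10*. Their part in the differences by number was not tested. What distinguished the samples numbered 1 is not given in the sources used here.

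**Figure D5:**
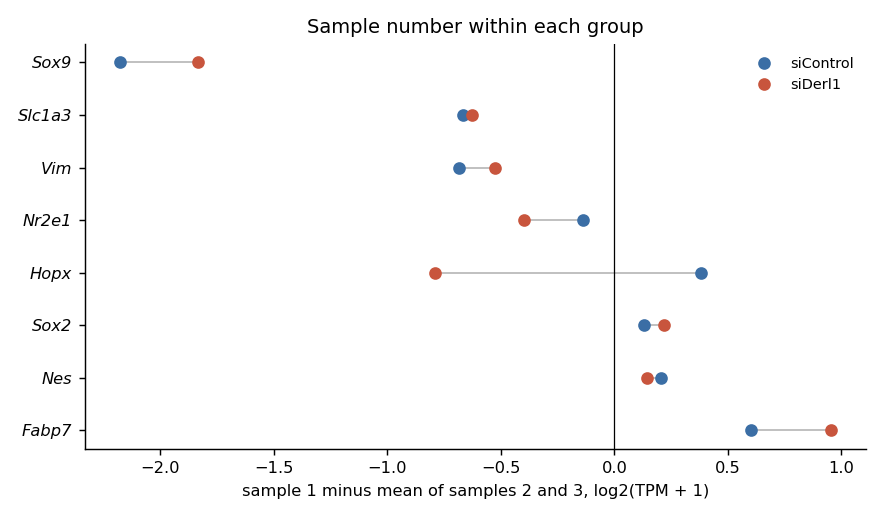
Level in sample 1 minus the mean of samples 2 and 3 within siControl and within siDerl1, on the log2(TPM + 1) scale, for the 8 measured stem cell genes. *Sox9* stands farthest from 0, *Slc1a3*, *Vim* and *Nr2e1* lie below 0 and *Fabp7*, *Nes* and *Sox2* above 0 in both groups, and *Hopx* is at 0.38 in siControl and −0.79 in siDerl1.

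Promoter sequences of 2 genes that were lower and 2 that were higher in the samples numbered 1 are shown because these genes moved in opposite ways with the sample number. They are from RefSeq on the GRCr8 build, with 250 bases before and 50 bases after the annotated start. Capitals mark matches on either strand to CCAAT, to TATAAA, to GGGCGG (GC box) or to ACAAT (a core bound by SOX factors), none of which overlapped. Windows were found for 8 of the 9 genes. That of *Vim* lies at chr17:81577011-81577310 on the plus strand, that of *Slc1a3*, the farthest upstream of its annotated starts, at chr2:59557759-59558058 on the minus strand, that of *Fabp7* at chr20:37669356-37669655 on the plus strand and that of *Sox2* at chr2:119464881-119465180 on the plus strand.
Vim: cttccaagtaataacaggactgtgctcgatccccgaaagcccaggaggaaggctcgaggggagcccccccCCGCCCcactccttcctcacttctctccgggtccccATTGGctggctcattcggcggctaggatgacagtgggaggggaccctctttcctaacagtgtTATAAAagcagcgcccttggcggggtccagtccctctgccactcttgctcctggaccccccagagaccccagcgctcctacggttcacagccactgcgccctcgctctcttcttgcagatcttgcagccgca
Slc1a3: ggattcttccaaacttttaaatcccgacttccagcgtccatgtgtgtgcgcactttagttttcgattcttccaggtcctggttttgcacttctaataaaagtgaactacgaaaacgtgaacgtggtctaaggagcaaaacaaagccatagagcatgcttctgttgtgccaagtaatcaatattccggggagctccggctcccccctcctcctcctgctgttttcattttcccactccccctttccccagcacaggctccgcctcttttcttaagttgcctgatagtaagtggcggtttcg
Fabp7: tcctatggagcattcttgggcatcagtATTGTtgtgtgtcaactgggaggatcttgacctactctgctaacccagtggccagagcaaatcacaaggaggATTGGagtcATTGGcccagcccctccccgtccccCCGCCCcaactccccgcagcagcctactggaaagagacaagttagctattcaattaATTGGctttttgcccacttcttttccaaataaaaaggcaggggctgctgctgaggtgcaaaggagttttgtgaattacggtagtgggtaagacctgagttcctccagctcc
Sox2: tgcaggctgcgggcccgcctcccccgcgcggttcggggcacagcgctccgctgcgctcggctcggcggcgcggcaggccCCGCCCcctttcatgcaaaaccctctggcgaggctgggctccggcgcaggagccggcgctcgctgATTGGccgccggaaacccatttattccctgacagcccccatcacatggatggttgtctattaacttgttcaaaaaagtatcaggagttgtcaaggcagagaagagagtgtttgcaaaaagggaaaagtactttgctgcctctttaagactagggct

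The *Vim* window held 1 CCAAT, 1 TATAAA that began 82 bases before the annotated start, and 1 GC box, and it was 62.0% G and C. The *Fabp7* window held 3 CCAAT, 1 GC box and 1 SOX core and was 51.3% G and C, and the *Sox2* window held 1 CCAAT and 1 GC box and was 60.7% G and C. The *Slc1a3* window, at 48.3% G and C, held none of these letters. Among all 27457 rat promoters of this length, 37.8% held CCAAT, 14.3% TATAAA, 34.9% GGGCGG and 33.1% ACAAT at least once.

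For each measured stem cell gene, the genes of at least 10 TPM whose log2(TPM + 1) profile over the 6 samples lay closest were found by the root mean square difference of the centred values, as a description. The nearest to *Sox9* were *Ccnd2* at 0.105, which encodes a G1 cyclin, *Serpinf1* at 0.18 and *Wif1* at 0.216, which encodes a secreted inhibitor of WNT ligands. *Ccnd2* was at 17.4, 76.2 and 82.9 TPM in siControl and 25.0, 78.4 and 80.4 TPM in siDerl1 samples 1 to 3. *Wif1* was at 130, 460 and 591 TPM in siControl and 136, 366 and 529 TPM in siDerl1. Like *Sox9*, both were low in the samples numbered 1. The nearest to *Vim* were *Me1* at 0.027, the cytosolic malic enzyme, *Gmppb* at 0.032 and *Slc7a5* at 0.040, a large neutral amino acid transporter. The nearest to *Slc1a3* were *Parvb* at 0.051, *Lamc1* at 0.057, a laminin subunit, and *Wdfy2* at 0.068. The nearest to *Fabp7* were *Hmx2* at 0.079, *Celsr2* at 0.082, a cadherin of planar cell polarity, and *Maf* at 0.093. *Sox2* lay nearest to *Ddx17*, *Rpl32* and *Fbxo18* (0.018 to 0.024) and *Nes* to *Slc12a9*, *Tle4* and *Ccdc132* (0.031 to 0.033). *Nr2e1* lay nearest to *Ptrhd1*, *Ccdc93* and *Lurap1l* (0.113 to 0.166) and *Hopx* to *Dffb*, *N6amt2* and *Faap20* (0.264 to 0.282). Among the stem cell genes themselves, *Vim* and *Slc1a3* were the closest pair at 0.142, then *Sox2* and *Nes* at 0.18, and *Sox9* and *Fabp7* were the farthest apart at 1.32.

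Of 34 other neural stem and progenitor genes, 30 were matched and 25 tested. Against siControl, 3 were lower and 0 higher at an unadjusted limma p under 0.05, with none passing after adjustment and a median log2 difference of −0.05. Over all genes tested 6.7% were called in this way, 416 lower and 276 higher. The lowest p belonged to *Itga6*, an integrin subunit that binds laminin, with means of 91.4 ± 12.6 and 64.8 ± 3.77 TPM (SD, n = 3), groups that did not overlap, and a log2 difference of −0.48. Its limma adjusted p was 0.669 without and 0.0256 with the block, but 0.240 when the block fit left out the variance trend and 0.136 when it left out the filter. The others were *Hdac1*, a histone deacetylase, at 283 ± 16.3 and 237 ± 15.3 TPM, and *Bmi1*, a Polycomb protein of stem cell self-renewal, at 88.9 ± 9.83 and 76.0 ± 0.233 TPM (SD, n = 3). *Cd9*, a tetraspanin and the highest of the list, was at 431 ± 29.6 and 473 ± 49.0 TPM (SD, n = 3), and the groups overlapped. By sample number 4 of the 25 were called, beside 10.6% of all genes, and these 4 were lower in number 1, of which *Fgfr3* and *Tnc* kept the call without the variance trend. They included the FGF receptor *Fgfr3*, at 141, 388 and 478 TPM in siControl and 144, 376 and 480 TPM in siDerl1 samples 1 to 3, with a log2 difference of −1.58 and a limma adjusted p of 5.3e-07. *Tnc*, the matrix protein tenascin-C, named after its values were seen, was at 5.85, 36.17 and 26.01 TPM in siControl and 3.71, 14.84 and 15.74 TPM in siDerl1 samples 1 to 3.

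The families of the single genes are read here against 6.7% of all genes called between the siRNA groups at an unadjusted p under 0.05 and 10.6% called by sample number. Of 10 tested SOX factors 0 were called at an unadjusted limma p under 0.05, and 5 were called by sample number, of which *Sox9* was the only one lower in number 1. Without the variance trend, *Sox9* (0.0148) and *Sox11* (0.0344, named after its values were seen) kept an adjusted p under 0.05 by number, while 252 of all genes passed. *Sox10*, a factor of the oligodendrocyte lineage, had a higher mean than *Sox2*, at 645 ± 73.2 TPM in siControl and 659 ± 123 TPM in siDerl1 (SD, n = 3). Of 5 tested SLC1 transporters 0 were called between the siRNA groups and 2 by number, *Slc1a3* and *Slc1a2* (GLT-1, named after its values were seen), both lower in number 1, with adjusted p of 0.0577 and 0.0482 without the variance trend. *Slc1a1*, a neuronal glutamate transporter, was at 67.5 ± 6.58 and 63.7 ± 4.46 TPM (SD, n = 3), and the groups overlapped. Of 7 tested fatty acid binding proteins 0 were called between the siRNA groups and 3 by number, and none of the 3 kept the call without the variance trend. *Fabp5*, the highest of them, went opposite to *Fabp7*, with a log2 difference of −0.37 by number and a limma adjusted p of 0.00794, or 0.159 without the variance trend. Of 8 tested NR2 nuclear receptors 2 (*Rxra* and *Nr2f2*) were lower at an unadjusted limma p under 0.05, none passed after adjustment, and 0 were called by number. *Rxra*, a retinoid receptor, was at 74.0 ± 10.4 and 61.5 ± 3.79 TPM, *Nr2f2* at 12.3 ± 2.19 and 9.05 ± 1.03 TPM, and *Nr2f6*, the highest of the list, at 105 ± 8.09 and 107 ± 3.94 TPM (SD, n = 3).

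The labelled cell type was set against markers of others. *Sox2*, *Nes* and *Vim* were well above 50 TPM in every sample, while *Prom1* was listed at 0. Of 10 microglia markers 9 were under 1 TPM in every sample, as were all 6 endothelial markers matched and 6 of 8 fibroblast and mural cell markers. The highest were *P2ry12* and *Tmem119* of microglia, with means over the 6 samples of 4.25 and 0.103 TPM, *Kdr* and *Flt1* of endothelium, at 0.483 and 0.263 TPM, and *Col1a1* and *Pdgfrb* of fibroblasts and mural cells, at 1.35 and 0.822 TPM. The summed fibroblast and mural cell markers were at 1.22 to 2.00 TPM in siControl and 3.04 to 3.49 TPM in siDerl1, which did not overlap. Among single genes tested, 13.6% had groups that did not overlap. Of these 8 markers 4 were at 0 in every sample and only *Col1a1* was tested, so the sum was made of values near 0. The summed TPM of the 10 astrocyte markers was 1513 to 1678 in siControl and 1687 to 1782 in siDerl1, ranges that again did not overlap. Most of it came from *Aldoc*, *S100b* and *Fgfr3*, of which only *Aldoc* had groups that did not overlap. Under 1 TPM in every sample were 4 of the 10. Of the 6 tested, 2 (*Gfap* and *Aldoc*) were higher at an unadjusted limma p under 0.05, beside 6.7% of all genes. *Aldoc*, a glycolytic enzyme of astrocytes, was at 661 ± 41.7 and 788 ± 67.5 TPM (SD, n = 3; limma adjusted p = 0.704), and *S100b*, a calcium-binding protein of astrocytes, at 532 ± 127 and 540 ± 146 TPM (SD, n = 3). The summed oligodendrocyte lineage markers were at 1903 to 2253 TPM in siControl and 1853 to 2403 TPM in siDerl1, with *Cnp*, a myelin enzyme, at 603 ± 33.2 and 629 ± 44.4 TPM (SD, n = 3), and the neuron and neuroblast markers at 199 to 213 and 178 to 216 TPM. Of 6 tested neuron markers, *Dcx*, a microtubule protein of neuroblasts, at 9.78 ± 1.08 and 7.04 ± 0.627 TPM, and *Syt1*, a synaptic vesicle protein, at 49.8 ± 3.40 and 39.5 ± 6.25 TPM (SD, n = 3), were lower at an unadjusted limma p under 0.05, beside 6.7% of all genes, with none passing after adjustment. *Tubb3*, a neuronal tubulin and the highest of these markers, was on the other side, at 68.1 ± 8.31 and 78.6 ± 3.97 TPM (SD, n = 3). Its groups did not overlap, and its unadjusted limma p was 0.0740 without and 0.0461 with the block (adjusted 0.763 and 0.307). The part of these markers in the *Nes* values was not tested.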

How the data were processed

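RNA of 3 siControl and 3 siDerl1 NSC samples was sequenced from stranded poly(A) libraries. The authors trimmed the reads with Trimmomatic 0.39, used STAR 2.7.3a for alignment to rn6 and deposited gene levels as TPM from RSEM 1.3.2, with 1 table per sample. The authors' own test used edgeR 3.28.1 on values not used here. RefSeq transcripts of a gene are summed in 1 row, and pairs of samples shared at most 0.277% of equal values. Depth is not given in TPM.

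Here log2(TPM + 1) was fitted, for the 10331 genes that averaged 1 TPM or more, with limma 3.58.1 (R 4.3.3; lmFit, then eBayes with a variance trend) as siDerl1 against siControl, with two-sided tests and Benjamini-Hochberg adjustment over all genes. Sample number was tested by an F test over the 3 numbers in a fit with group. Fold changes on the log2(TPM + 1) scale understate changes of low genes. Deviations of equally numbered samples from their group means correlated at 0.70, 0.35 and 0.51 across genes for numbers 1, 2 and 3. Unequal numbers correlated at 0.34 (siControl 2 with siDerl1 3) and 0.25 (siControl 3 with siDerl1 2) and below 0 where one was number 1, so the check set number 1 apart but hardly separated 2 from 3. The numbers, which come from the sample labels, were taken as pairs because each equal pair correlated above 0.1. The unequal pairs among numbers 2 and 3 did so too, so this rule cannot tell 2 from 3. The numbers were used as a block in a second fit. The fits were also run on simulated data with known changes, the outcome of which is not given here.

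Members and lists were chosen with earlier results of these data known. Named were all 9 members, *Derl1*, and of each other list the 2 genes with the highest mean and up to 3 with an unadjusted p under 0.05 or a block adjusted p under 0.05, and the 3 nearest profiles of each measured member. Alternatives were a pseudocount of 0.1, no filter or a minimum of 5 TPM, median-ratio scaling, no variance trend, the block and leaving out each sample.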

Additional observations from a re-analysis of the deposited data

How the results depend on the processing

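With the replicate block, 57 genes passed an adjusted p of 0.05 and 1624 an unadjusted p of 0.05, against 0 and 692 without it, and *Derl1*, at −1.03, passed (adjusted p = 0.00884). The block changed the call of no measured stem cell gene. After the data were seen, 3 more fits were added. Without both samples numbered 1, 33 genes passed adjusted and 1145 unadjusted, *Derl1* was at −0.83 (adjusted p = 0.00696) and *Sox9* at −0.051. The block without the variance trend gave 1318 genes unadjusted and 0 adjusted, and the block without the filter 1691 unadjusted and 2 adjusted. By sample number, 591 genes passed without the filter and 252 without the variance trend, where 1 of the stem cell genes (*Sox9*) passed. Leaving out 1 sample at a time, 424 to 805 genes passed unadjusted and none adjusted, the median log2 difference of the 8 genes was −0.18 to 0.035, 0 to 1 of them passed unadjusted, *Derl1* was at −1.16 to −0.80, 608 to 1594 genes and 4 to 5 of the 8 passed by number. These were not the same genes: without siControl sample 2 or siDerl1 sample 2, *Hopx* passed by number (adjusted p = 0.0122 and 0.00886) and *Sox2* did not (0.0583 and 0.0548), with number 2 then a single sample assumed to vary like the others. Directions turned on leaving out 1 sample for *Vim* (−0.16 to 0.24), *Sox9* (−0.66 to 0.67), *Fabp7* (−0.39 to 0.20), *Hopx* (−0.11 to 0.45, and by number −0.79 to 0.38) and *Slc1a3* (−0.37 to 0.063); the cause was not tested. *Sox2*, *Nes* and *Nr2e1* kept their direction between the siRNA groups in each alternative run, but leaving out 1 sample gave 0.0079 to 0.16, −0.33 to −0.19 and −0.47 to −0.095. Depth is unknown, so counting error could not be set beside these values.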
